A study of Homo sapiens with 6 samples.

Results

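This account follows bone morphogenetic protein (BMP) signalling and the ID genes in MDA-MB-231 cells, a human breast cancer cell line labelled as estrogen receptor negative, after depletion of the histone demethylase LSD1. The members are ID1, ID2, ID3, ID4, BMP2, BMP4, SMAD6, BMPR1A and BMPR2, each represented by every probe set that the platform annotation assigns to that symbol alone. This gave 22 of the 54675 probe sets on each array, for 8 of the 9 genes. No probe set is assigned to BMPR1A here, so that receptor gene is not analysed, and 1 further probe set shared by ID2 and ID2B was left out. The 3 LSD1 siRNA arrays came from cells transfected with an siRNA against LSD1, and the 3 control siRNA arrays from cells transfected with a control siRNA. In both groups total RNA was taken at day 6, after 2 rounds of transfection. The design describes the replicates as biological and does not say whether a replicate number marks a shared day, and all cells are of 1 line. The comparison asks which of these transcripts differed when LSD1 was depleted.

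BMP ligands such as BMP2 and BMP4 are secreted dimers that bring together type II receptors, BMPR2 among them, and type I receptors, BMPR1A among them. The type I receptor phosphorylates SMAD1, SMAD5 or SMAD9, which bind SMAD4, enter the nucleus and switch on target genes, of which ID1, ID2 and ID3 are the classic examples and SMAD6 is a feedback inhibitor. ID proteins have a helix-loop-helix but no DNA-binding region, so they hold E proteins (the products of TCF3, TCF4 and TCF12) away from DNA.

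The stretch before the start site is shown for the 4 ID genes and SMAD6, since these are the pathway's target genes among the members. The sequences are RefSeq's for build GRCh38.p14, give the 250 bases before the annotated start, and run 5′ to 3′ on the gene's strand. Capitals mark GTCT (the SMAD box), the E box CANNTG and TATAA, each searched on both strands, so that GTCT on the other strand appears as AGAC.
ID1 promoter, GRCh38.p14, chr20:31605039-31605288, plus strand: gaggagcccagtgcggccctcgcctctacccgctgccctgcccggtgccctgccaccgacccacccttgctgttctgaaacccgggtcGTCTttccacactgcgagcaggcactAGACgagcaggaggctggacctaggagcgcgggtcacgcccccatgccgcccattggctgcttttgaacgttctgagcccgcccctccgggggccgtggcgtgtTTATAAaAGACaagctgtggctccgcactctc
ID2 promoter, GRCh38.p14, chr2:8681806-8682055, plus strand: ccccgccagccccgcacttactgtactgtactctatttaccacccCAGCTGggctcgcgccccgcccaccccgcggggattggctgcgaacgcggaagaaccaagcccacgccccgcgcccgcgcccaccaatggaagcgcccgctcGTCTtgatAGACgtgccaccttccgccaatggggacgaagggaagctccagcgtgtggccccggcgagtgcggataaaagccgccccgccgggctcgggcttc
ID3 promoter, GRCh38.p14, chr1:23559502-23559751, minus strand: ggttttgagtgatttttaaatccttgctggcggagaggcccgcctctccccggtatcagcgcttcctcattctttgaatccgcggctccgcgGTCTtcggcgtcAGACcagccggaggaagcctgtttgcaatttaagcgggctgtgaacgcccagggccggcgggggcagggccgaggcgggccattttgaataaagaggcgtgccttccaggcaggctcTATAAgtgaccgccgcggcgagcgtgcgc
ID4 promoter, GRCh38.p14, chr6:19837120-19837369, plus strand: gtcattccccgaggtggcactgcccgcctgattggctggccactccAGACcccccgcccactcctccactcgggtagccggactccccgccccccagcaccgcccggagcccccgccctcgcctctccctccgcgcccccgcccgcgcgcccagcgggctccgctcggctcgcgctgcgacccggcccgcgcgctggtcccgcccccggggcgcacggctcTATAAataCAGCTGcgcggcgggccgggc
SMAD6 promoter, GRCh38.p14, chr15:66701986-66702235, plus strand: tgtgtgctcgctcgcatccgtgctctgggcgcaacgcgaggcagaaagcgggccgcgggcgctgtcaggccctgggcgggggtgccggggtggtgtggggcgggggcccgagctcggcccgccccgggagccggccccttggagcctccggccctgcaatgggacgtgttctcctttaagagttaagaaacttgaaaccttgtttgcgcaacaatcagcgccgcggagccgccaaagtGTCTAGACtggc

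All 5 windows hold at least 1 GTCT, a 4-letter motif that 77.5% of 35116 RefSeq promoter windows of this length also hold. ID1 has 3 of them, ID2, ID3 and SMAD6 have 2 each, and ID4 has 1. In SMAD6 the 2 lie back to back as GTCTAGAC, the palindrome of the SMAD box, beginning 12 bases before the start, and 0.2% of the windows hold that 8-letter motif. The GC-rich SMAD motif GGCGCC, in 16.4% of windows, is in none of the 5. TATAA lies 29 bases before the start in both ID3 and ID4 and 31 to 32 bases before it in ID1, where matches on the 2 strands overlap, against 18.9% of windows. CANNTG, in 61.8% of windows, is in ID2 and ID4 but not in the other 3. These matches describe letters in a window and were not tested as sites.

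The targeted gene was checked first. KDM1A, which encodes LSD1, had signals of 291, 184 and 228 on the LSD1 siRNA arrays, against 2540, 2493 and 2295 on the control siRNA arrays. Its mean was 9.58% of the control mean (limma adjusted p = 1.46e-08), and no control array came near the LSD1 siRNA arrays. Signals are MAS5 values with the same trimmed mean on each array (about 500.1), and levels of different probe sets were not set against each other. The ratio of the 3′ to the 5′ ACTB control signal was 1.33 to 1.39 on LSD1 siRNA arrays and 1.33 to 1.74 on control siRNA arrays, and its part in the results was not tested. Of the 6 genes listed as present in this line, VIM, CD44, EGFR, CAV1 and AXL had mean signals of 3959 or more in both groups, while SPARC was dim, at 51.2 in LSD1 siRNA cells and 19.7 in control siRNA cells. Of these 6, EGFR fell by 0.25 (limma adjusted p = 0.0191), and of 6 genes listed as low in this line, ERBB3 rose by 0.61 (limma adjusted p = 0.0148). Of the 6 listed as low, 5 were above the filter described below. GATA3 averaged 513 in LSD1 siRNA cells and 523 in control siRNA cells, and FOXA1 231 and 216. ESR1 averaged 75.7 in LSD1 siRNA cells and 59.1 in control siRNA cells. Of the leukocyte, endothelial and fibroblast markers, 6 each, only 4, 2 and 4 were above the filter described next and tested, and none of those passed. PTPRC and CDH5, which mark leukocytes and endothelium, were below it. The summed signals of the 3 lists, in that order, were 225 to 283, 230 to 305 and 614 to 779 in LSD1 siRNA cells, against 218 to 232, 286 to 294 and 533 to 668 in control siRNA cells. The fibroblast gene LUM, also below that filter and not tested, was at 95.2 in LSD1 siRNA cells and 1.90 in control siRNA cells, with no overlap, and its part in the results was not tested. Array signals cannot tell fewer cells of a type from less RNA per cell.

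Among the 8 measured member genes, the ligand gene BMP2 rose, and the ligand gene BMP4 and the ID gene ID4 fell. ID1, ID2, ID3, SMAD6 and BMPR2 did not pass the test. A gene was called at a limma adjusted p under 0.05 over all genes tested, on log2(signal + 15), with its brightest probe set standing for it (a set with an x suffix only where a gene had no other). Only probe sets whose mean lay above the 40th percentile, a signal of about 28.0, were tested. Of the 8 genes 3 passed, which is 37.5%, beside 41.0% of 13822 genes tested (19.8% higher and 21.3% lower). The share is close to the background, so the count says nothing particular about BMP genes. Non-overlapping groups were seen for 6 of the 8 genes, or 75%, beside 50.4% of all genes. The median log2 change was -0.12 over the 8 genes and -0.02 over all genes.

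**Figure D1:**
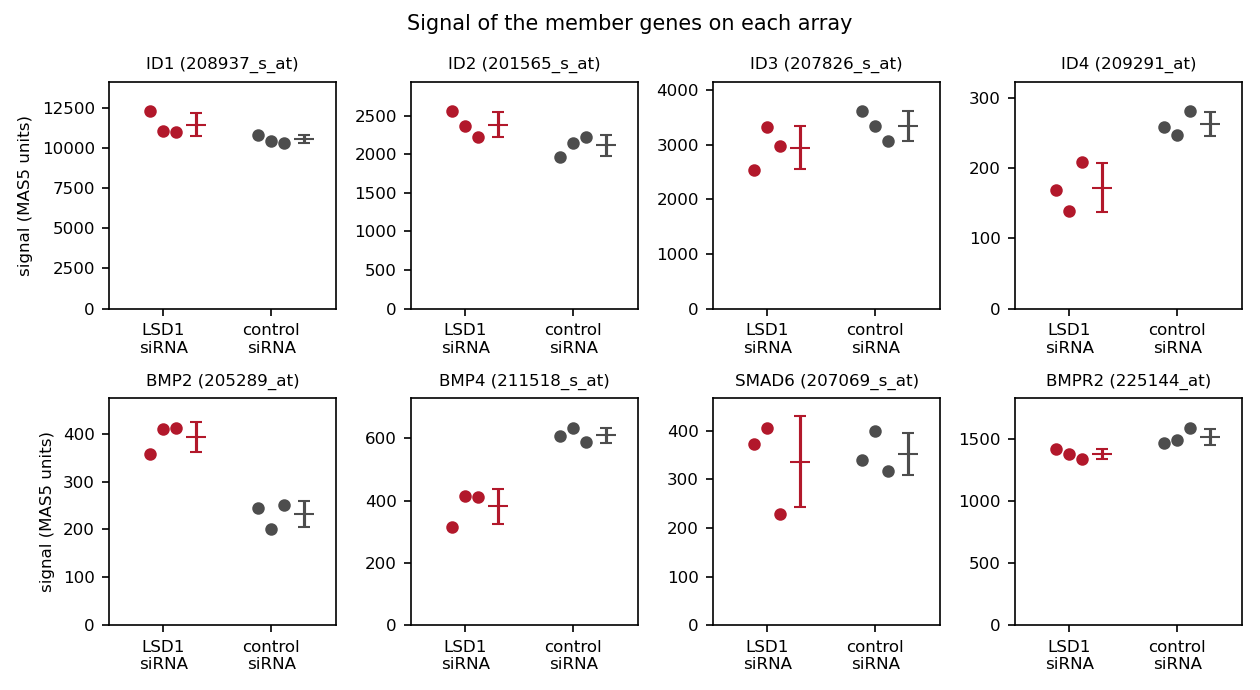
Signal (MAS5 units, linear axes from 0) of the 8 measured member genes on each array, with the 3 LSD1 siRNA arrays in red left of the 3 control siRNA arrays in grey; each panel is the brightest probe set of a gene, and bars show mean and SD. BMP2 lies higher and BMP4 and ID4 lower with LSD1 siRNA, with no overlap of points, while ID3 and SMAD6 overlap.

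Counted by probe set, 18 of the 22 were above the filter and 2 rose and 2 fell, which is 22.2% of those tested. In the same fit 34.4% of 27079 probe sets passed, 17.0% higher and 17.4% lower. Non-overlapping groups were seen for 9 of the 18 sets, or 50%, beside 46.0% of all probe sets tested. The 9 include the SMAD6 set 209886_s_at, which was above the filter only through its control signals. The median log2 change was 0.11 over the 18 member sets, of the opposite sign to that over genes, and -0.02 over all sets. The 4 below the filter were 2 of ID4 and 1 each of SMAD6 and BMPR2. The 2 that rose belong to BMP2 and ID2, and the 2 that fell to BMP4 and ID4.

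**Figure D2:**
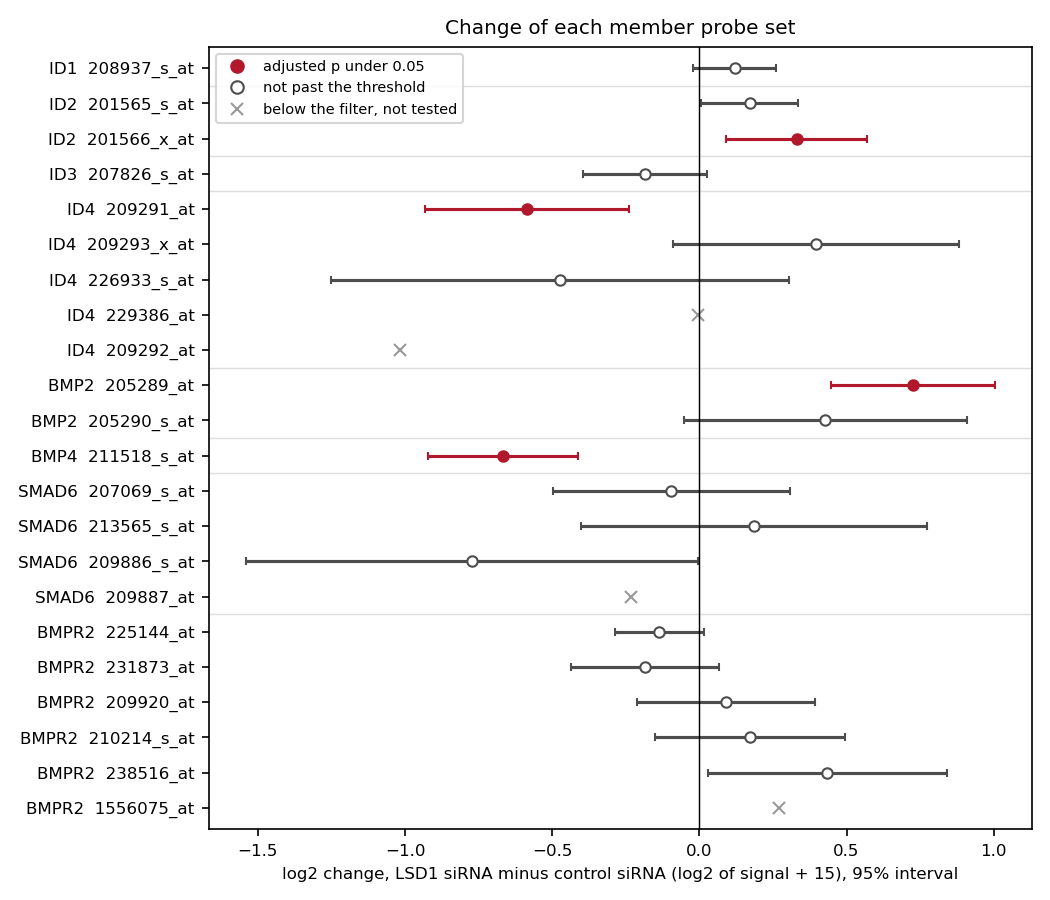
Log2 change (LSD1 siRNA minus control siRNA, log2 of signal + 15) of the 22 member probe sets by gene, with 95% intervals from limma; filled red points passed the test, open points did not, and crosses mark the 4 sets below the filter. Sets of 1 gene lie on both sides of 0 for ID4, SMAD6 and BMPR2.

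The 2 ligand genes moved in opposite directions. BMP2, at probe set 205289_at, had signals of 357, 409 and 413 with LSD1 siRNA, against 245, 201 and 251 with control siRNA. All LSD1 siRNA arrays were above all control arrays. Its mean was 393 ± 31.1 with LSD1 siRNA and 233 ± 27.1 with control siRNA (SD, n = 3 each). BMP2 rose by 0.72 ± 0.13 (standard error) on the log2 scale (limma adjusted p = 0.000677). A second BMP2 set, 205290_s_at, read 261, 236 and 141 with LSD1 siRNA and 121, 155 and 177 with control siRNA. Here the groups overlapped through LSD1 siRNA replicate 3, and the log2 value of 0.43 did not pass (limma adjusted p = 0.160). Without that replicate it was 0.68 (limma adjusted p = 0.0215). In the other alternatives, 14 of 15, this set did not pass.

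BMP4 has 1 probe set, 211518_s_at, with signals of 316, 415 and 412 with LSD1 siRNA, against 607, 635 and 588 with control siRNA. Every LSD1 siRNA array was below every control array, and LSD1 siRNA replicate 1 was the lowest. The mean was 381 ± 56.3 with LSD1 siRNA and 610 ± 23.4 with control siRNA (SD, n = 3 each). BMP4 fell by 0.67 ± 0.12 (standard error) on the log2 scale (limma adjusted p = 0.000640). BMP2 and BMP4 kept direction and call under all 17 alternatives tried, with log2 changes of 0.58 to 0.79 for BMP2 and -0.73 to -0.54 for BMP4.

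Since both ligands were read on the same arrays, their ratio does not depend on how an array was scaled. The log2 ratio of BMP2 to BMP4 signal, set relative to its control mean, was 1.57, 1.38 and 1.40 on the LSD1 siRNA arrays, against 0.09, -0.26 and 0.17 on the control arrays. The means differed by 1.45 on the log2 scale, with an SD of 0.11 among LSD1 siRNA arrays and 0.23 among control arrays. Since BMP2 lay wholly above and BMP4 wholly below the control arrays, the separation of the ratio follows from theirs, and it is given as a description with no test.

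BMP4's profile over the 6 arrays was set against every other gene tested, because BMP4 had the smallest p of the members. The 3 genes with the smallest root mean square difference of centred log2 values were ANP32A (0.04), MAP3K3 (0.05) and CBLL2 (0.06). ANP32A, which encodes a nuclear phosphoprotein that inhibits histone acetylation, had a log2 change of -0.72, and MAP3K3, which encodes a MAP kinase kinase kinase, one of -0.70. CBLL2 was dim, at 22.6 with LSD1 siRNA and 42.1 with control siRNA, and did not pass (limma adjusted p = 0.155). The distance includes the difference between the groups. A fall near that of BMP4 thus follows from how the 3 genes were picked and is given as a description only. ANP32A and MAP3K3 have 3 probe sets each, of which only the brightest was used.

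Of the 2 receptor genes among the members only BMPR2, which encodes a type II receptor, was measured, by 6 probe sets of which none passed. Its brightest, 225144_at, read 1417, 1383 and 1337 with LSD1 siRNA and 1470, 1491 and 1592 with control siRNA. The arrays did not overlap, but the log2 difference of -0.14 has a 95% interval of -0.28 to 0.01 (limma adjusted p = 0.127). Set 231873_at was at -0.18, and 209920_at, 210214_s_at and 238516_at were at 0.09, 0.17 and 0.44. The sixth, 1556075_at, was below the filter, at a mean of 36.7 with LSD1 siRNA and 25.8 with control siRNA. For 238516_at the LSD1 siRNA signals of 115, 152 and 157 lay above the control signals of 106, 99.5 and 93.4, the opposite side from the brightest set (limma adjusted p = 0.0915). The mean of all 6 sets gave 0.11 in place of -0.14, so no direction is given for BMPR2.

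SMAD6, the inhibitory SMAD that BMP induces, did not pass with any of its 4 probe sets. At 207069_s_at the signals were 373, 407 and 230 with LSD1 siRNA and 340, 400 and 317 with control siRNA, and the groups overlapped. The log2 value was -0.10, with a 95% interval of -0.50 to 0.31 (limma adjusted p = 0.721). LSD1 siRNA replicate 3 set its sign, since the value without it was 0.15. The dim set 209886_s_at read 12.6, 31.0 and 13.7 with LSD1 siRNA, all below control signals of 34.5, 51.6 and 39.9, and had a log2 value of -0.77 (limma adjusted p = 0.113). Its LSD1 siRNA mean of 19.1 lay below the filter signal of 28.0. The set was thus tested only because it was higher with control siRNA, and its lack of overlap supports nothing. Set 213565_s_at was at 0.19, and 209887_at, below the filter, averaged 6.73 with LSD1 siRNA and 11.8 with control siRNA.

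The ID genes most often used as readouts of BMP signalling, ID1, ID2 and ID3, did not pass by their brightest sets. ID1, which has 1 probe set, had signals of 12320, 11088 and 11032 with LSD1 siRNA and 10829, 10484 and 10353 with control siRNA. The groups did not overlap, but the log2 difference was 0.12 with a 95% interval of -0.02 to 0.26 (limma adjusted p = 0.159). That interval bounds a rise of ID1 at 0.26 and a fall at 0.02 on the log2 scale. A larger absolute change was measured for 77.6% of genes tested.

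ID2 had signals of 2559, 2365 and 2228 at set 201565_s_at with LSD1 siRNA and 1967, 2149 and 2226 with control siRNA. The lowest LSD1 siRNA array and the highest control array lay within 2 units of each other. The log2 difference was 0.17 with a 95% interval of 0.01 to 0.33 and did not pass (limma adjusted p = 0.0825), but passed without control siRNA replicate 3, at 0.21 (limma adjusted p = 0.0474). The other set, 201566_x_at, whose suffix marks possible cross-hybridisation, read 816, 634 and 750 with LSD1 siRNA and 578, 527 and 630 with control siRNA. It rose by 0.33 in the fit over probe sets (limma adjusted p = 0.0346). That call was lost without control replicate 1 or 2 or without LSD1 siRNA replicate 1 or 3, with adjusted p of 0.0698, 0.123, 0.139 and 0.0995. With the mean of both sets ID2 was at 0.25 (limma adjusted p = 0.0349).

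ID3 did not pass. Its single probe set read 2536, 3325 and 2981 with LSD1 siRNA and 3617, 3346 and 3061 with control siRNA, and the groups overlapped. The log2 difference was -0.19 with a 95% interval of -0.39 to 0.02 (limma adjusted p = 0.147). LSD1 siRNA replicate 2 was the highest array of its group, and without it the value was -0.28 (limma adjusted p = 0.0413). In the other alternatives, 16 of 17, ID3 did not pass.

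ID4 had the largest change of the 4 ID genes by its brightest set, but its 5 probe sets did not all give the same call. ID4 is known as a target of mutant p53 and as a regulator of mammary basal cells. At 209291_at the signals were 169, 139 and 209 with LSD1 siRNA, against 259, 248 and 282 with control siRNA. All LSD1 siRNA arrays were below all control arrays, and ID4 fell by 0.58 ± 0.16 on the log2 scale (standard error; limma adjusted p = 0.0112). In the fit over probe sets this call was lost without LSD1 siRNA replicate 2, at -0.45 (limma adjusted p = 0.0574), and the gene call was lost in the unmoderated test (adjusted p = 0.0672 from the unmoderated limma fit).

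A second ID4 set, 209292_at, lay below the filter and was not tested with the filter in place. It read 6.93, 9.63 and 13.4 with LSD1 siRNA and 30.7, 34.5 and 41.4 with control siRNA, which again did not overlap. With no filter it was tested and fell by 1.02 (limma adjusted p = 0.0269). Set 226933_s_at was at -0.47 and did not pass (limma adjusted p = 0.344), and the dim 229386_at averaged 26.5 with LSD1 siRNA and 26.9 with control siRNA. On the other side, 209293_x_at had signals of 111, 135 and 85.2 with LSD1 siRNA and 75.6, 94.6 and 68.8 with control siRNA, a log2 value of 0.40 that did not pass (limma adjusted p = 0.198). With the mean of all 5 sets ID4 was at -0.34 and did not pass (limma adjusted p = 0.181).

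The rest of the pathway was read from a list of 55 genes, of which 53 have a named probe set and 40 were tested. Of the 40, 9 rose and 11 fell, which is 50% beside 41.0% of all genes, and the groups did not overlap for 57.5%, beside 50.4%. The median log2 change was -0.20 over the list and -0.02 over all genes. In the alternatives the number that fell was 6 in the unmoderated test and 6 with the mean of all probe sets. A share of 50% is not far from the background, and the genes are given by role. In each role the genes past the threshold with the smallest p, at most 4, are named. The roles hold 3 to 9 tested genes each, too few for a count to be read as a result about a role. Beside every such count stand 19.8% of all genes tested called higher and 21.3% called lower.

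**Figure D3:**
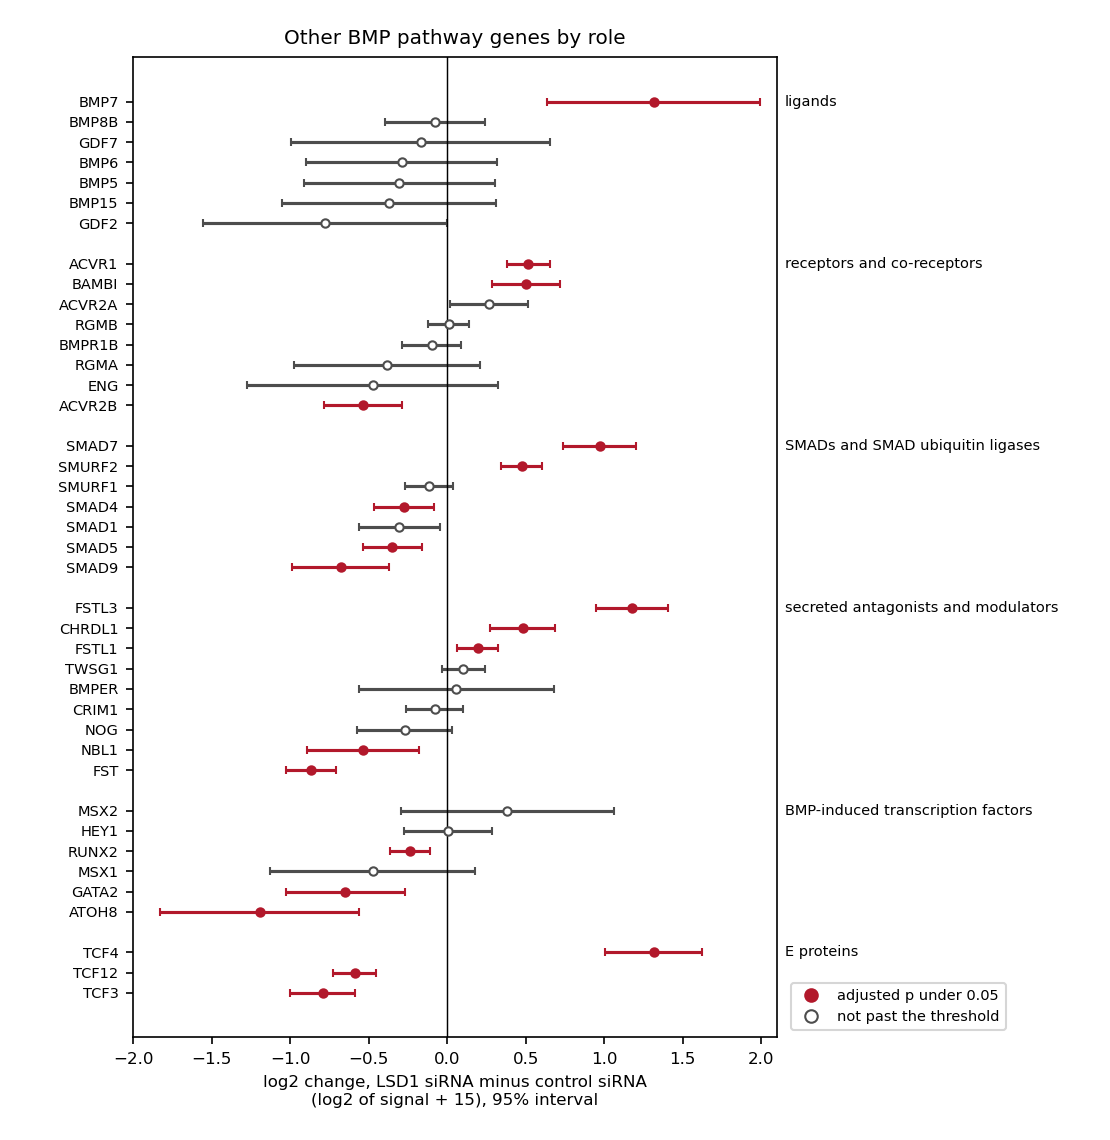
Log2 change (LSD1 siRNA minus control siRNA, log2 of signal + 15) with 95% limma intervals for the 40 other BMP pathway genes tested, grouped by role; filled red points passed the test. TCF4, BMP7, FSTL3 and SMAD7 lie farthest to the right and ATOH8 farthest to the left.

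Of 7 genes for SMADs and SMAD ubiquitin ligases, 2 rose and 3 fell. SMAD7, an inhibitory SMAD shared with TGF-beta signalling, had signals of 479, 461 and 514 with LSD1 siRNA, against 245, 239 and 236 with control siRNA. It rose by 0.97 ± 0.11 (standard error; limma adjusted p = 2.08e-05). SMAD7 thus rose, while SMAD6, the inhibitory SMAD more specific to BMP, did not pass; the difference between them was not tested. SMURF2, a ubiquitin ligase recruited by SMAD7, rose by 0.47 (limma adjusted p = 6.18e-05), with means of 11701 ± 220 with LSD1 siRNA and 8424 ± 411 with control siRNA (SD, n = 3 each).

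The receptor-activated SMAD9 and SMAD5 fell by 0.68 and 0.35 (limma adjusted p = 0.00217 and 0.00595). SMAD9 signals were 271, 236 and 187 with LSD1 siRNA and 369, 359 and 399 with control siRNA, with a gap between the groups. The other 2 genes of the signal-carrying SMADs are named after their values were seen. SMAD4, the common partner, fell by 0.28 (limma adjusted p = 0.0249), and SMAD1 was at -0.31 and did not pass (limma adjusted p = 0.0563). A dimmer SMAD1 set, 210993_s_at, fell by 0.63 in the fit over probe sets (limma adjusted p = 0.00665), with no overlap of groups. Its remaining set, 208015_at, was below the filter. The SMAD4 call was lost without control replicate 3, LSD1 siRNA replicate 2 or LSD1 siRNA replicate 3, at adjusted p of 0.0820, 0.0795 and 0.0945. That call was also lost with no intensity trend (limma adjusted p = 0.0788). In the unmoderated limma fit SMAD4 and SMAD5 both lost their calls (adjusted p = 0.115 and 0.0796). With the mean of all probe sets SMAD5, SMAD9 and SMAD4 were at -0.16, -0.55 and -0.41 and did not pass.

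Among 8 receptor and co-receptor genes tested, 2 rose and 1 fell. ACVR1, a type I receptor for BMPs, had signals of 1867, 1824 and 1874 with LSD1 siRNA, against 1264, 1302 and 1308 with control siRNA. It rose by 0.52 ± 0.06 (standard error; limma adjusted p = 4.21e-05). BAMBI, a pseudoreceptor without a kinase that dampens BMP and TGF-beta signalling, rose by 0.50, and the type II receptor gene ACVR2B fell by 0.54. Their adjusted p were 0.00165 and 0.00247 (limma), and the groups did not overlap for either gene. The co-receptor gene RGMB, named after its values were seen, did not pass by its brightest set, at 0.01. Of its 4 tested sets 2 rose, 227339_at by 0.68 and 242450_at by 0.80 (limma adjusted p = 0.000135 and 0.000129).

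Secreted antagonists and modulators also split, with 3 of 9 higher and 2 lower. FST, which encodes follistatin, an antagonist of activins and some BMPs, had signals of 2219, 1943 and 1962 with LSD1 siRNA, against 3780, 3948 and 3492 with control siRNA. It fell by 0.87 (limma adjusted p = 2.84e-06), and all 3 of its probe sets fell. The related FSTL3 had signals of 911, 1098 and 942 with LSD1 siRNA, against 404, 483 and 395 with control siRNA, and rose by 1.18 (limma adjusted p = 4.77e-06). CHRDL1, a chordin-like antagonist, rose by 0.48.

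NBL1, a BMP antagonist gene, fell by 0.53 although its groups overlapped, a call lost without control replicate 1 or 2 or LSD1 siRNA replicate 2 or 3 (adjusted p of 0.0881, 0.0633, 0.0801 and 0.0745). NBL1 also lost its call with no intensity trend (limma adjusted p = 0.0852) and in the unmoderated limma fit (adjusted p = 0.167). FSTL1, the third of those that rose and named after its value was seen, rose by 0.19. This call was lost without LSD1 siRNA replicate 2 or 3 (adjusted p of 0.104 and 0.0879). Of its 3 tested probe sets 1 rose, 1 fell and 1 did not pass. The set that fell, 230744_at, was at -0.76 in the fit over probe sets (limma adjusted p = 0.0488). The value over all FSTL1 probe sets averaged was -0.033. With no intensity trend FSTL1 lost its call too (limma adjusted p = 0.0746). Of the 7 other ligand genes tested, BMP7 alone passed, at 1.31 with means of 60.1 ± 7.27 with LSD1 siRNA and 15.2 ± 2.22 with control siRNA (SD, n = 3 each). Its control mean lay below the filter signal of 28.0, so the set was tested only because it was high with LSD1 siRNA and had to differ, and its count among the genes that rose supports nothing. The value was 1.92 with a constant of 1 and 0.67 with a constant of 60 in place of 15. It rests on 1 dim set of 4, and the other 3, below the filter, had lower means with LSD1 siRNA (209590_at averaged 4.42 with LSD1 siRNA and 27.0 with control siRNA). Without LSD1 siRNA replicate 1 or 3 a different BMP7 set became the brightest, and the values were -0.27 and -0.12.

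Of 6 transcription factor genes that BMP induces in other cells, 3 fell and none rose, beside 21.3% lower and 19.8% higher of all genes. ATOH8 had signals of 80.1, 31.8 and 93.3 with LSD1 siRNA, against 171, 146 and 178 with control siRNA, and fell by 1.19 ± 0.29 (standard error; limma adjusted p = 0.00574). GATA2 fell by 0.65 and RUNX2 by 0.24. The ATOH8 call was lost in the unmoderated test (adjusted p = 0.0927 from the unmoderated limma fit). GATA2 lost its call there (adjusted p = 0.130), with no intensity trend (limma adjusted p = 0.0584) and without control replicate 2 (limma adjusted p = 0.0515), and averaging all RUNX2 probe sets gave -0.035.

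The 3 E protein genes, whose products ID proteins bind, all passed, in different directions, beside 41.0% of all genes. TCF4 had signals of 336, 430 and 354 with LSD1 siRNA, against 142, 130 and 150 with control siRNA. It rose by 1.31 (limma adjusted p = 1.80e-05), and 6 of its 7 tested probe sets rose. TCF12 read 1670, 1822 and 1775 with LSD1 siRNA and 2579, 2692 and 2670 with control siRNA, and fell by 0.59 (limma adjusted p = 1.68e-05).

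TCF3, whose signals were 1032, 929 and 818 with LSD1 siRNA and 1703, 1460 and 1680 with control siRNA, fell by 0.79 (limma adjusted p = 4.16e-05). None of the 3 E protein genes had overlapping groups. The probe sets of TCF3 did not all give the same call, since of 12 tested 3 fell, 8 did not pass and 1 rose. The set that rose, 228052_x_at, averaged 60.4 with LSD1 siRNA and 13.1 with control siRNA. Its control mean lay below the filter signal. It was thus tested only because it was high with LSD1 siRNA, and its rise supports nothing. With the mean of all probe sets TCF3 and TCF12 were at -0.08 and -0.38 and did not pass.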

How the data were processed

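The 6 arrays each hold 54675 probe sets. Per the labels, 2.5 ug of total RNA was labelled by the Affymetrix protocol. The submitters' processing notes name GCOS, Affymetrix Expression Console 1.1 and MAS5. The deposited values are linear signal intensity values, and no array image data were used here. The 2% trimmed mean of about 500.1 on every array shows that the deposited values were scaled to 1 target, so no further normalization was applied. Probe sets were named from the platform annotation, which gives 1 symbol for 41097, several for 1801 and none here for 11777.

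Signals were analysed as log2(signal + 15), 15 being near their 25th percentile (14.5), which understates the change of dim probe sets. Probe sets with a mean log2 value above the 40th percentile were tested with limma 3.58.1 in R 4.3.3 (lmFit, eBayes with an intensity trend), over 27079 probe sets and, with the brightest set of each gene, over 13822 genes. P-values were adjusted by the Benjamini-Hochberg method over each table. The script was tested on simulated data. The number of arrays, 3 a group, limits precision (median standard error 0.11 for genes).

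The genes named by rule are KDM1A, all members, up to 4 called pathway genes a role and the 3 nearest profiles. SMAD1, SMAD4, FSTL1 and RGMB were named after their values were seen. Members, lists and motifs were chosen with earlier results of these data, or the sequences, known. Alternatives covered the constant, filter, intensity trend, moderation, quantile normalization, median centring, probe set summary, sets with an x suffix, replicate block and each array left out.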

Additional observations from a re-analysis of the deposited data

How the results depend on the processing

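BMP2, BMP4 and KDM1A kept direction and call under every alternative run, and ID1 passed in none. Of the member counts, higher probe sets numbered 1 in place of 2 when the filter or the intensity trend was dropped. With no filter, lower probe sets numbered 3, the added set being ID4 209292_at. Higher probe sets also numbered 1 in the unmoderated test, where lower probe sets and lower genes numbered 1 each in place of 2. With the mean of all probe sets, 2 member genes were higher and 1 lower, and 6 other pathway genes were lower in place of 11, as were 6 in the unmoderated test. Leaving out 1 array in turn gave 1 to 2 member genes higher and 2 to 3 lower, 1 to 2 member probe sets higher and 1 to 2 lower, and 7 to 10 other pathway genes higher and 9 to 11 lower. Directions turned for BMPR2 (0.11) and FSTL1 (-0.033) with the mean of all probe sets, and when arrays were left out for SMAD6 (range -0.25 to 0.15, as a gene and as probe set 207069_s_at, the highest without LSD1 siRNA replicate 3) and BMP7 (range -0.27 to 1.39, and 0.67 to 1.92 over the constants tried). BMP7 was at -0.27 without LSD1 siRNA replicate 1 and -0.12 without replicate 3, where another probe set became the brightest. SMAD6 turned without LSD1 siRNA replicate 3, and why that array differed was not tested. For BMPR2 and FSTL1 the averaged sets lay on both sides of 0, and why sets of 1 gene differ was not tested. Replicate numbers gave no sign of pairing the arrays, as same-numbered deviations correlated at 0.01, -0.01 and 0.02, though this cannot show that no day was shared. With the replicate number as a block, 5679 genes and 9548 probe sets passed in place of 5673 and 9310, and the member counts were the same. Dim probe sets, near the filter or below it, limit what can be said of ID4, SMAD6 and BMP7.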
